A study of Mus musculus with 18 samples.

Results

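Pisd-ps1, Sfi1, 2810474O19Rik and 4833442J19Rik are 4 of the 23337 genes of the count table, and they form 2 neighbour pairs, one on chromosome 11 and one on chromosome 6. They were chosen by their names, on earlier results of these data in which all of them were higher in SKG than in WT cells, so their SKG and WT values are given below as a description with no test. RNA-seq counts were examined in 18 libraries of invariant natural killer T (iNKT) cells, T lymphocytes that recognise lipids on CD1d, sorted from the thymus of mice on the BALB/c background. There were 6 groups of 3 libraries, namely NKT1, NKT2 and NKT17 cells of WT mice and of SKG mice. No treatment and no age of the sorted mice is given in the labels. SKG mice carry a spontaneous point mutation in Zap70, the kinase gene behind the T cell receptor, that weakens signaling. In the study SKG mice were crossed with BALB/cJ mice, and WT and SKG F2 offspring were bred separately to give the F3 mice that were used. Genotype therefore travels with any other stretch of the genome that was fixed in one of the 2 breeding lines, and the mutation and such a stretch cannot be told apart in these groups. Zap70 lies on chromosome 1, away from both pairs.

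The genes of these pairs belong to unrelated processes. Sfi1 encodes a protein that binds centrins, the small calcium-binding proteins of centrioles. Pisd-ps1 is a pseudogene related to Pisd, the mitochondrial enzyme that makes phosphatidylethanolamine from phosphatidylserine. RefSeq lists 2810474O19Rik as Resf1, named as a retroelement silencing factor, and the silencing of retroelements in mammals uses the histone methyltransferase Setdb1, its partner Trim28, and DNA methylation. RefSeq lists 4833442J19Rik as Etfbkmt, the methyltransferase of the beta chain of electron transfer flavoprotein, which carries electrons from the mitochondrial oxidation of fatty acids and amino acids.

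On build NCBIM37, Pisd-ps1 lies on the plus strand at chr11:3025907-3031007 with 7 exons, and Sfi1 lies on the minus strand at chr11:3031853-3093466 with 31 exons. Their 3′ ends face each other across 845 bases. 4833442J19Rik lies at chr6:149088371-149099693 with 6 exons, and 2810474O19Rik at chr6:149257936-149284180 with 7 exons, both on the plus strand and 158242 bases apart. Amn1, on the minus strand, lies between them. The working description of these genes as noncoding goes against the annotation for 3 of the 4, since GENCODE M1 gives Sfi1, 2810474O19Rik and 4833442J19Rik as protein-coding genes and Pisd-ps1 as a processed transcript. Both pairs lie near the end of a chromosome sequence. Pisd-ps1 starts 25906 bases after the first sequenced base of chromosome 11, and 232857 bases follow 2810474O19Rik on chromosome 6.

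Whether the members could share reads was examined from the genome, because the libraries were read as single 50-base stretches. Of the 50-base windows that lie within an exon, 73.1% of 1414 windows of Pisd-ps1, 94.3% of 6052 windows of Sfi1, 99.2% of 6254 windows of 2810474O19Rik and 100% of 2202 windows of 4833442J19Rik occurred once in the genome. No window of a member was found in an exon of another member, so a read inside an exon that matches one of them exactly cannot be counted for another. The annotated exons of Pisd-ps1 and Sfi1 do not overlap. Sfi1 shares 167 exonic bases, 2.2% of its exons, with Drg1 on the same strand. Of the Sfi1 windows, 339 (5.6%) recurred on chromosome 5, and 33 recurred in exons of Pisd. Pisd-ps1 had the largest share of copies among the members. Its windows recurred in exons of Pisd on chromosome 5 (156 windows) and of Pisd-ps2 on chromosome 17 (117 windows). Counted anywhere on a chromosome, 302 of its windows (21.4%) recurred on chromosome 17 and 166 (11.7%) on chromosome 5. The best local alignment of the spliced exons had 95.2% identity over 1428 bases with Pisd and 96.5% identity over 403 bases with Pisd-ps2. These 2 stretches of one read length are shown because they set a place where the pseudogenes cannot be told apart by a read beside one where they can, with bases that differ in capitals, and both are read in the direction of the transcript.
Pisd-ps1, chr11:3027494-3027543, plus strand: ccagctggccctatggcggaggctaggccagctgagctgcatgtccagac
Pisd-ps2, chr17:3080973-3081022, minus strand: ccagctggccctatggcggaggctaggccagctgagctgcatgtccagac
Pisd-ps1, chr11:3028943-3028992, plus strand: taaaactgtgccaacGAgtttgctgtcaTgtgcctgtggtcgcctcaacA
Pisd-ps2, chr17:3079531-3079580, minus strand: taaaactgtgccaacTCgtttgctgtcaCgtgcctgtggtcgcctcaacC
The upper stretch is identical in both genes. The lower stretch has 4 differences, the most found in a stretch of this length within the 403 aligned bases. Exonic sequence outside that alignment was not compared in this way.

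The promoters of the chromosome 6 members are shown because these genes were raised together. RefSeq promoters of 2 of the 4 members were at hand, on build GRCm38.p6 and from 250 bases before to 50 bases after the start of the gene, both on the plus strand. Capitals mark CCAAT on either strand, which reads ATTGG where it lies on the other strand.
4833442J19Rik, chr6:149141263-149141562: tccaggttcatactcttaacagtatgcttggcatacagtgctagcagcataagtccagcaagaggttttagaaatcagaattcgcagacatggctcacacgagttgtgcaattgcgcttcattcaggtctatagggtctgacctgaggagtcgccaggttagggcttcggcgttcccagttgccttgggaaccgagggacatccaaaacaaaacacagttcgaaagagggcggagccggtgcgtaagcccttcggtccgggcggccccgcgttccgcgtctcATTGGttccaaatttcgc
2810474O19Rik, chr6:149309164-149309463: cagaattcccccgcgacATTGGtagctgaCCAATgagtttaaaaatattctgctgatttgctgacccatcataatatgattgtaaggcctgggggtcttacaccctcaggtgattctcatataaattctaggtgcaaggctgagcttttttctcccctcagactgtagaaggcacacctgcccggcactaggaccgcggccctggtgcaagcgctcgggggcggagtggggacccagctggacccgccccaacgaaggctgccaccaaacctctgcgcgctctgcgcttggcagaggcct
CCAAT was found in both promoters, and 37.4% of 32851 RefSeq promoters hold it. In 4833442J19Rik its only match lies in the 50 bases after the start of the gene, and in 2810474O19Rik the matches lie far before the start. GGGCGG was also found in both, and 35.7% of all promoters hold it. TATAAA was found in that of 2810474O19Rik only, before the start but not next to it, and 13.6% of all promoters hold it. Of the other motifs searched, CCGGAAG (held by 8.86% of all promoters), TGANTCA (7.81%) and TGGAAA (21.4%) were found in neither. Nor was GCGNGGGCG, which 5.55% of all promoters hold. All searches covered both strands.

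All levels below are read counts scaled to a common library size with TMM factors (CPM), and those of the members rest on 39 to 2134 reads per library. Library totals ran from 4391029 to 8895917 counts. The 6 markers of NKT1 cells summed to 7349 to 9661 CPM in NKT1 libraries and to at most 437.6 CPM in the others, and the 6 markers of NKT17 cells summed to 2382 to 2483 CPM in NKT17 libraries and to at most 14.3 CPM elsewhere. The 6 markers of NKT2 cells were highest in NKT2 and NKT17 libraries (1578 to 2698 CPM) and did not separate these subsets. Their members went both ways in SKG NKT17 cells, where Pdcd1 was at 76.8 to 84.6 CPM against 717 to 1020 CPM in WT and Il17rb at 382 to 411 against 148 to 180 CPM. The steady sum of the NKT17 markers also hides shifts of both signs in NKT17 cells, with 1 marker higher and 2 lower in SKG. Ccr6 was at 565 to 618 CPM in SKG against 3.65 to 18.4 CPM in WT. Il23r was at 236 to 251 against 451 to 457 CPM, and Il1r1 at 216 to 246 against 425 to 494 CPM. Zap70 was read at 516 to 605 CPM in WT and at 421 to 529 CPM in SKG libraries of NKT1, which overlapped. It was at 483 to 574 CPM in WT and 360 to 436 CPM in SKG NKT2. In NKT17 it was at 716 to 852 CPM in WT and 453 to 565 CPM in SKG. Since the mutation changes a base, this level does not check the genotype. B cell and red cell markers stayed at or under 1.45 CPM in every library, and myeloid markers at or under 12.0 CPM. The 3 markers of thymic epithelium summed to at most 16.6 CPM, with Foxn1 at 0 reads in NKT17 libraries.

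In WT cells the level of Sfi1 was 41.5, 40.5 and 33.3 CPM in NKT1, 28.0, 29.4 and 27.6 CPM in NKT2, and 32.4, 32.0 and 28.5 CPM in NKT17. In SKG cells it was 71.9, 75.4 and 80.4 CPM in NKT1, 80.6, 93.6 and 90.7 CPM in NKT2, and 119.1, 101.0 and 109.8 CPM in NKT17. Every SKG library lay above every WT library of any subset. The log2 difference of SKG from WT was 0.98 ± 0.13 (SE, n = 3 libraries a group) in NKT1, 1.64 ± 0.14 in NKT2 and 1.83 ± 0.14 in NKT17, which is 1.97-fold, 3.12-fold and 3.55-fold. In bulk RNA of sorted cells such a difference can be more RNA per cell or more cells that express the gene, and these cannot be told apart.

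Pisd-ps1, its neighbour, was lower in WT NKT1 cells at 46.7, 23.9 and 32.1 CPM than in SKG NKT1 cells at 49.4, 68.7 and 65.8 CPM. In NKT2 cells it was at 45.2, 35.1 and 34.1 CPM in WT and at 75.5, 82.0 and 63.3 CPM in SKG. In NKT17 cells it was at 60.7, 68.7 and 63.8 CPM in WT and at 137.4, 139.6 and 149.2 CPM in SKG. The groups did not overlap within a subset, although the highest WT and the lowest SKG library of NKT1 were only a few CPM apart. On the log2 scale SKG exceeded WT by 0.83 ± 0.19 among NKT1 libraries, by 0.95 ± 0.19 among NKT2 and by 1.14 ± 0.19 among NKT17 libraries. Per kilobase of exon, SKG NKT17 cells held 80.9 CPM of Pisd-ps1 and 14.5 CPM of Sfi1, and WT NKT17 cells held 36.7 and 4.09 CPM.

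On chromosome 6, 4833442J19Rik had the largest log2 difference of the members in NKT1 and NKT2, and in NKT17 it was within its SE of that of Sfi1. Its WT levels were 27.5, 19.9 and 35.4 CPM in NKT1, 8.58, 6.82 and 14.1 CPM in NKT2, and 10.9, 18.8 and 20.2 CPM in NKT17. Its SKG levels were 71.5, 74.6 and 54.6 CPM in NKT1, 44.0, 52.1 and 55.2 CPM in NKT2, and 69.7, 51.8 and 61.0 CPM in NKT17. Again every SKG library of any subset was above every WT library. In NKT1 the log2 difference of SKG from WT was 1.27 ± 0.25, in NKT17 it was 1.86 ± 0.26, and in NKT2 it reached 2.35 ± 0.27, a 5.10-fold ratio.

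2810474O19Rik was read most. It stood at 230.2, 261.6 and 241.1 CPM in WT NKT1 and at 363.4, 387.8 and 369.7 CPM in SKG NKT1 cells. In NKT2 cells it stood at 85.6, 109.6 and 109.1 CPM in WT and at 350.8, 243.0 and 318.8 CPM in SKG. In NKT17 cells it stood at 78.5, 120.7 and 130.4 CPM in WT and at 194.9, 290.5 and 256.4 CPM in SKG. WT and SKG libraries did not overlap within a subset, but WT NKT1 libraries lay within the range of SKG NKT17, and the highest of them was above the lowest SKG NKT2 library. Its log2 difference of SKG from WT went from 0.61 ± 0.17 for NKT1 through 1.17 ± 0.17 for NKT17 up to 1.58 ± 0.17 for NKT2.

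**Figure D1:**
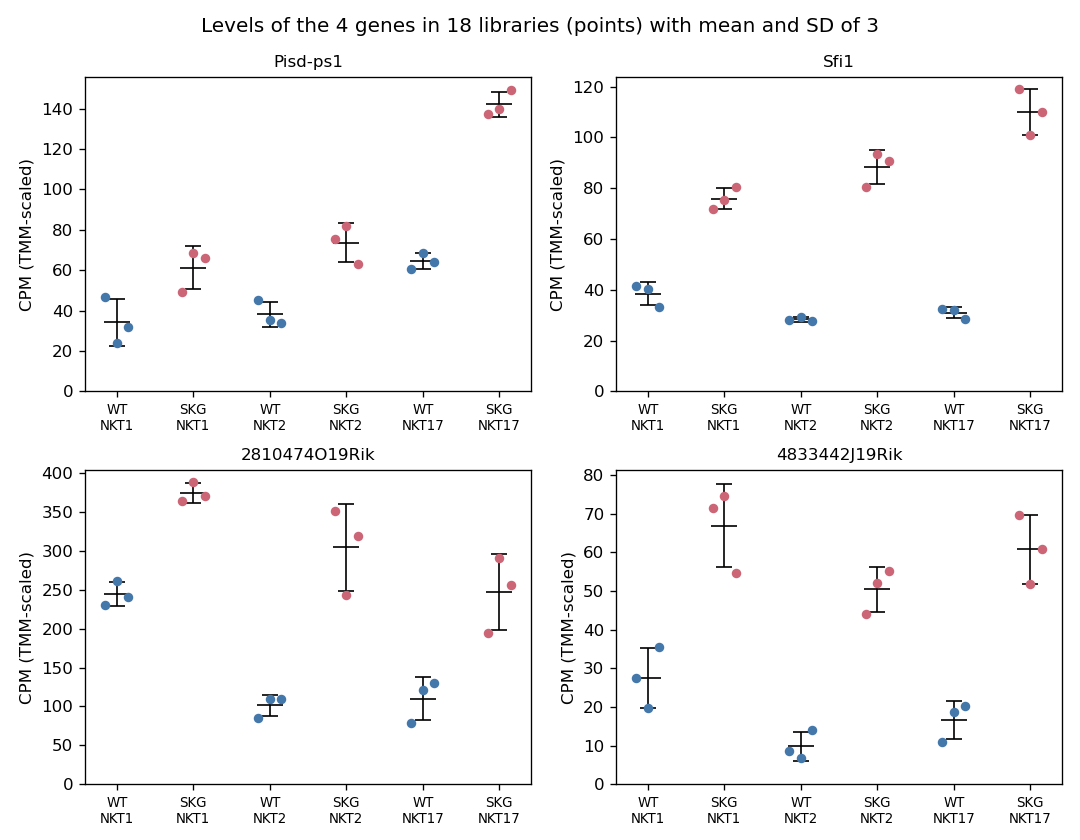
Level in CPM (vertical axes, from 0) of each of the 4 genes in the 6 groups (horizontal axes), with 1 point per library, WT in blue, SKG in red, and the mean with its SD over 3 libraries in black. In each panel and subset the 3 SKG points lie above the 3 WT points, as for Sfi1 in NKT17 (101.0 to 119.1 against 28.5 to 32.4 CPM).

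All 4 members met the study's thresholds (an adjusted p under 0.1 and a fold change of at least 1.5) as higher in SKG in each subset. Of all 11118 tested genes, 1.46% were called higher in NKT1, 3.9% in NKT2 and 3.83% in NKT17, and since this contrast chose the members nothing is read from their count. Of the 4 tokens in the sample titles 2 are shared by WT and SKG, and each other token belongs to a single genotype. Genotype is thus partly tied to the token, in the main fit too. A token block compares SKG with WT mainly within the shared tokens. With the token as a replicate block, 3 of 4 were called in NKT1, because the log2 difference of 2810474O19Rik went to 0.47, under 1.5-fold. It was also under that minimum, at 0.58, without WT NKT1 replicate 1. In 12 of 12 pairings of a member with a subset, each SKG library was above each WT library, which held for 7.62% of all tested genes in NKT1, 13.9% in NKT2 and 13% in NKT17. By log2 difference alone the members were not at the top of the list of 11118 tested genes. That ranking takes no account of read number or spread. Fbxl21, with a mean of at most 4.8 CPM in any group, had a larger log2 difference than every member in each subset. 4833442J19Rik ranked 361 in NKT1, 96 in NKT2 and 187 in NKT17, ahead of the other members in each, and 2810474O19Rik ranked 936, 230 and 428. A rank by the test is not given, since this contrast chose the members. Over all tested genes, 22 genes were called higher in all 3 subsets, these 4 among them.

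The SKG difference was smallest in NKT1 for each of the 4 members. For Sfi1 the log2 difference in NKT1 was below that in NKT17 by 0.85 ± 0.19 and below that in NKT2 by 0.66 ± 0.19. For 2810474O19Rik and 4833442J19Rik the gap between NKT1 and NKT2 was 0.97 ± 0.24 and 1.08 ± 0.36, and NKT2 had the largest difference. For Pisd-ps1 the differences between subsets, 0.12 to 0.31, were near their standard errors (0.27 each). The chromosome 11 members were thus most different in NKT17 and the chromosome 6 members in NKT2, which is a description of values that the choice of members used.

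A separate question is how the members differ among iNKT subsets, which was tested with the subset difference averaged over WT and SKG, a contrast the choice did not use. 2810474O19Rik was higher in NKT1 than in either other subset, 4833442J19Rik was higher in NKT1 than in NKT2, and Pisd-ps1 was higher in NKT17 than in either other subset. 2810474O19Rik was 1.72-fold higher in NKT1 than in NKT2 (edgeR quasi-likelihood test, adjusted p = 2.4e-05) and 1.83-fold higher in NKT1 than in NKT17 (adjusted p = 5.1e-06). 4833442J19Rik was 1.92-fold higher in NKT1 than in NKT2 (edgeR, adjusted p = 0.00023). Its log2 difference of NKT1 from NKT17 was 0.43 ± 0.18 (edgeR, adjusted p = 0.063) and that of NKT17 from NKT2 was 0.51 ± 0.18 (adjusted p = 0.034), both under the 1.5-fold minimum. Pisd-ps1 was 2.08-fold higher in NKT17 than in NKT1 (edgeR, adjusted p = 8.1e-07) and 1.81-fold higher in NKT17 than in NKT2 (adjusted p = 2.0e-05). Sfi1 was not called, with log2 differences of 0.11 ± 0.09 between NKT1 and NKT2 (edgeR, adjusted p = 0.38) and -0.11 ± 0.09 between NKT1 and NKT17 (adjusted p = 0.39). Its log2 difference of NKT17 from NKT2 was 0.22 ± 0.09 (edgeR, adjusted p = 0.076), which was under the 1.5-fold minimum. Of the members, 2 were called between NKT1 and NKT2, where 25.8% of tested genes were called. Also 2 were called between NKT1 and NKT17, where 25.6% were called, and 1 between NKT17 and NKT2, where 22% were called.

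These averages cover genotypes that were not alike. Between NKT1 and NKT2, the log2 difference of 2810474O19Rik was 1.27 ± 0.17 in WT and 0.30 ± 0.17 in SKG, and that of 4833442J19Rik was 1.48 ± 0.27 in WT and 0.40 ± 0.24 in SKG. The difference of NKT1 from NKT2 in these genes was thus wide in WT and narrow in SKG. From NKT17, 2810474O19Rik in NKT1 differed by 1.15 ± 0.17 in WT and 0.60 ± 0.17 in SKG. Such gaps between WT and SKG restate how the SKG difference varied among subsets, so they rest on values that the choice of members used. Sfi1 had its mean level highest in NKT1 in WT cells and highest in NKT17 in SKG cells, with log2 differences of NKT1 from NKT17 of 0.31 ± 0.14 in WT and -0.54 ± 0.13 in SKG. Pisd-ps1 kept its NKT17 preference in both, at -0.90 ± 0.19 in WT and -1.21 ± 0.19 in SKG on that scale.

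**Figure D2:**
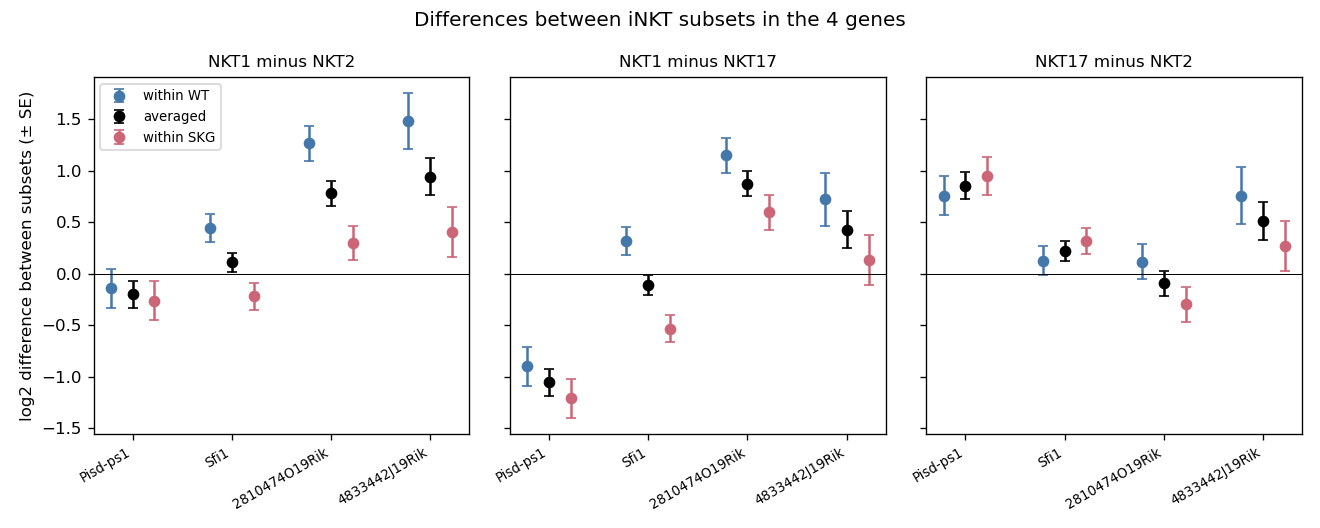
Log2 difference between iNKT subsets (vertical axis, with SE) of the 4 genes within WT (blue), within SKG (red) and averaged over both (black), one panel per pair of subsets. Blue points lie above red ones for the chromosome 6 genes in the 3 panels, as for 2810474O19Rik between NKT1 and NKT2 (1.27 in WT and 0.30 in SKG).

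The order of the 6 groups also differed between the pairs. Sfi1 ran from SKG NKT17 (110.0 ± 9.06 CPM, SD, n = 3) through SKG NKT2 (88.3 ± 6.82) and SKG NKT1 (75.9 ± 4.27) to WT NKT1 (38.4 ± 4.48), and each of these groups was wholly above the next. WT NKT17 (31.0 ± 2.12) and WT NKT2 (28.3 ± 0.91) overlapped. Pisd-ps1 stood alone in SKG NKT17 (142.1 ± 6.28 CPM), and SKG NKT2, WT NKT17 and SKG NKT1 followed with libraries that overlapped from one to the next (73.6 ± 9.53, 64.4 ± 4.02 and 61.3 ± 10.4). 4833442J19Rik had its 3 SKG groups overlapping at the top (66.9 ± 10.8, 60.8 ± 8.94 and 50.5 ± 5.77 CPM for NKT1, NKT17 and NKT2) and its 3 WT groups overlapping below (27.6 ± 7.78, 16.6 ± 4.98 and 9.82 ± 3.78 in the same order). 2810474O19Rik was highest in SKG NKT1 (373.7 ± 12.7 CPM), and WT NKT1 (244.3 ± 15.9) overlapped SKG NKT17 (247.3 ± 48.4).

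The levels of the nearest neighbours are given as values, and whether a whole stretch of chromosome differs between the lines was not tested. Amn1, between the chromosome 6 members and related to a yeast inhibitor of mitotic exit, was level in WT and SKG, with log2 differences of -0.03 ± 0.26 in NKT1, 0.04 ± 0.26 in NKT2 and -0.01 ± 0.26 in NKT17. Its group means were 17.4 to 18.8 CPM, and none of the comparisons passed the test (edgeR, adjusted p = 0.96 to 0.99). Drg1, a GTP-binding protein gene whose exons overlap those of Sfi1, had log2 differences of -0.08, -0.19 and -0.09 (SE 0.12 each), with adjusted p of 0.41 to 0.85 in edgeR. The sign of the Amn1 value changed with the library left out. The members stayed higher in SKG in every such fit, but they were chosen for being higher.

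Within 1 Mb of the pairs the table lists 40 other genes, of which 28 passed the filter on low counts, 20 on chromosome 11 and 8 on chromosome 6. Those outside the pairs lie on a single side of each, 19 after the chromosome 11 pair and 7 before the chromosome 6 pair. On chromosome 6, 0 of 8 were called in each subset by edgeR and by DESeq2, and 2, 1 and 2 had an unadjusted p under 0.05 in NKT1, NKT2 and NKT17. On chromosome 11, 3 of 20 (15%) were called in each subset, where 3.27% of all tested genes were called in either direction in NKT1, 7.95% in NKT2 and 8.37% in NKT17. Median log2 differences of the 28 neighbours were -0.01, -0.18 and -0.04, and those of all tested genes were -0.01, 0.00 and 0.00. By chromosome the medians were -0.02, -0.38 and -0.06 on chromosome 11 and -0.01, -0.04 and 0.00 on chromosome 6. The calls on chromosome 11 fell on 7 genes, and the share of all tested genes called in some subset was not computed. Of these 7 genes, 1 was higher in SKG.

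That gene was Pik3ip1, a membrane protein that restrains phosphoinositide 3-kinase, 136938 bases from the pair. It rose from 56.5 ± 14.8 to 92.4 ± 11.7 CPM in NKT1 (log2 difference 0.70 ± 0.20, edgeR adjusted p = 0.057) and from 43.4 ± 12.9 to 68.0 ± 3.81 CPM in NKT17 (0.65 ± 0.20, adjusted p = 0.043). Leaving out 1 library ended these calls in 3 of 18 fits each, namely without WT NKT1 replicate 2 or SKG NKT1 replicate 1 or 2 (log2 difference 0.53 to 0.70) and without WT NKT17 replicate 1 or 3 or SKG NKT17 replicate 1 (0.46 to 0.62). Eif4enif1, which binds the cap-binding factor of translation and lies 8929 bases from Sfi1, fell in NKT1 from 33.3 ± 2.21 to 17.4 ± 4.59 CPM (log2 difference -0.94 ± 0.22, edgeR adjusted p = 0.020). Its values were 30.8, 34.9 and 34.2 CPM in WT and 20.6, 19.4 and 12.1 CPM in SKG, and without SKG NKT1 replicate 3 the adjusted p was 0.13.

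Smtn, a gene of the smooth muscle cytoskeleton 324060 bases away, fell most firmly. It went from 72.4, 35.5 and 63.7 CPM in WT NKT2 to 3.96, 5.87 and 4.82 CPM in SKG NKT2 (log2 difference -3.54 ± 0.42, edgeR adjusted p = 4.8e-06), and from 28.4 ± 7.18 to 3.94 ± 2.79 CPM in NKT17 (-2.85 ± 0.42, adjusted p = 7.5e-05). In NKT1 it was at most 1.72 CPM in any library. Tcn2, the transcobalamin that carries vitamin B12, fell in NKT2 from 65.1 ± 17.5 to 36.8 ± 5.63 CPM (-0.82 ± 0.17, edgeR adjusted p = 0.0024). Once WT NKT2 replicate 2 was left out it fell by 0.58 on the log2 scale, under 1.5-fold. Mtfp1, a gene of mitochondrial fission, fell in NKT2 from 9.14 ± 2.96 to 2.65 ± 2.13 CPM (edgeR adjusted p = 0.074). Its call ended without WT NKT2 replicate 1 or 2 or SKG NKT2 replicate 1 or 3 (adjusted p 0.11 to 0.27). The other called genes were near the detection limit. Slc35e4, a putative transporter, had 10 to 42 reads in WT NKT1 and 0 to 5 in SKG NKT1 libraries, and its call ended in 16 of 18 fits that left out 1 library, the exceptions being WT NKT1 replicate 2 and WT NKT17 replicate 1. Gal3st1, an enzyme of sulfatide synthesis, had 1 to 10 reads in WT NKT17 and 0 in SKG NKT17 libraries, and its call ended in 4 of 18 such fits (without WT NKT17 replicate 2 or any SKG NKT17 library). Over both pairs 10.7% of tested neighbours were called in each subset, against 3.27%, 7.95% and 8.37% of all tested genes. The called neighbours were mostly lower in SKG.

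**Figure D3:**
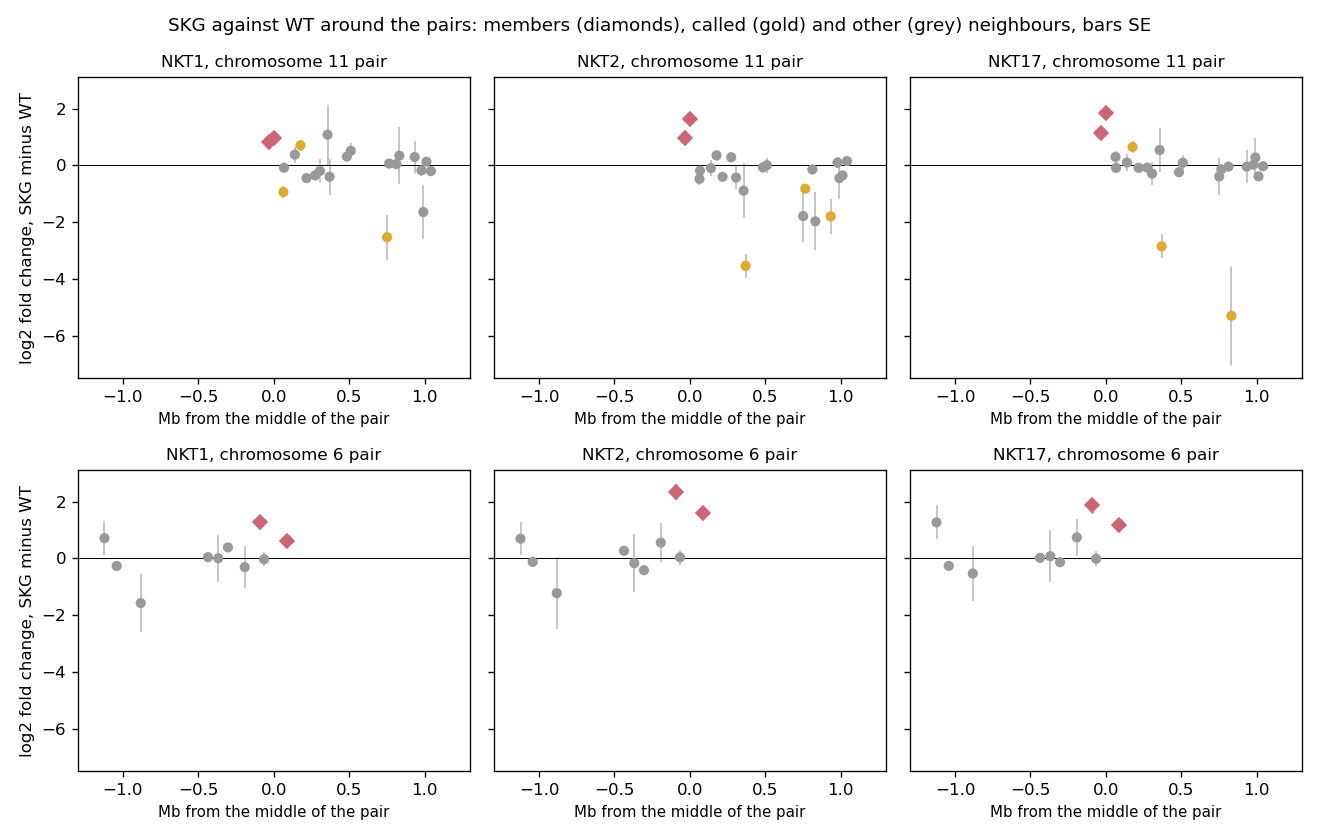
Log2 difference of SKG from WT (vertical axes, with SE) against distance in Mb from the middle of each pair (horizontal axes), for the chromosome 11 pair above and the chromosome 6 pair below, in NKT1, NKT2 and NKT17. Red diamonds are the members, gold points are neighbours called at the study's thresholds and grey points other tested neighbours; the members lie above 0 in every panel, while Amn1 between the lower diamonds lies at 0.04 or less.

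Pisd-ps2, the relative of Pisd-ps1 on chromosome 17, was also higher in SKG, at a much lower level. It was read at 4.83, 2.67 and 5.49 CPM in WT NKT1 and at 5.76, 8.54 and 6.93 CPM in SKG NKT1 (log2 difference 0.69 ± 0.34, edgeR adjusted p = 0.37). In NKT2 it rose from 4.4 ± 0.13 to 8.60 ± 1.53 CPM (0.96 ± 0.34, adjusted p = 0.091), and in NKT17 from 8.41 ± 1.84 to 16.5 ± 0.50 CPM (0.98 ± 0.32, adjusted p = 0.061). These calls ended in 10 and in 5 of the 18 fits that left out 1 library, with adjusted p up to 0.25 and 0.19, and the latter 5 left out WT NKT17 replicate 1 or 3 or any SKG NKT17 library. In NKT2 the fits that ended the call left out any NKT2 library, any SKG NKT17 library or SKG NKT1 replicate 3. The Pisd gene itself had log2 differences of 0.08 ± 0.15, -0.07 ± 0.14 and 0.16 ± 0.14 and passed no test (edgeR, adjusted p = 0.60 to 0.89). Exons of Pisd also overlap C330019G07Rik over 1156 bases, and reads there may not have been counted for either. A further pseudogene, Pisd-ps3, was listed with 0 reads in the 18 libraries.

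Within a library the reads of Pisd-ps1 were 5.84 to 10.5 times those of Pisd-ps2, and the range of this ratio was 5.84 to 10.5 in WT and 7.46 to 9.52 in SKG libraries. The ratio of Pisd-ps1 to its chromosomal neighbour Sfi1 spanned 1.87 to 2.24 among WT and 1.15 to 1.38 among SKG libraries of NKT17, and 1.2 to 1.61 and 0.697 to 0.937 among those of NKT2. In NKT1 the ranges overlapped, at 0.59 to 1.12 for WT and 0.687 to 0.912 for SKG. Over the 18 libraries the log2 CPM of Pisd-ps1 had a Pearson r of 0.96 with Pisd-ps2, 0.74 with Sfi1 and 0.10 with Pisd. After the group means were subtracted, r was 0.64 with Pisd-ps2, 0.15 with Sfi1 and 0.21 with Pisd. How far reads of shared stretches moved Pisd-ps1 and Pisd-ps2 together was not tested.

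**Figure D4:**
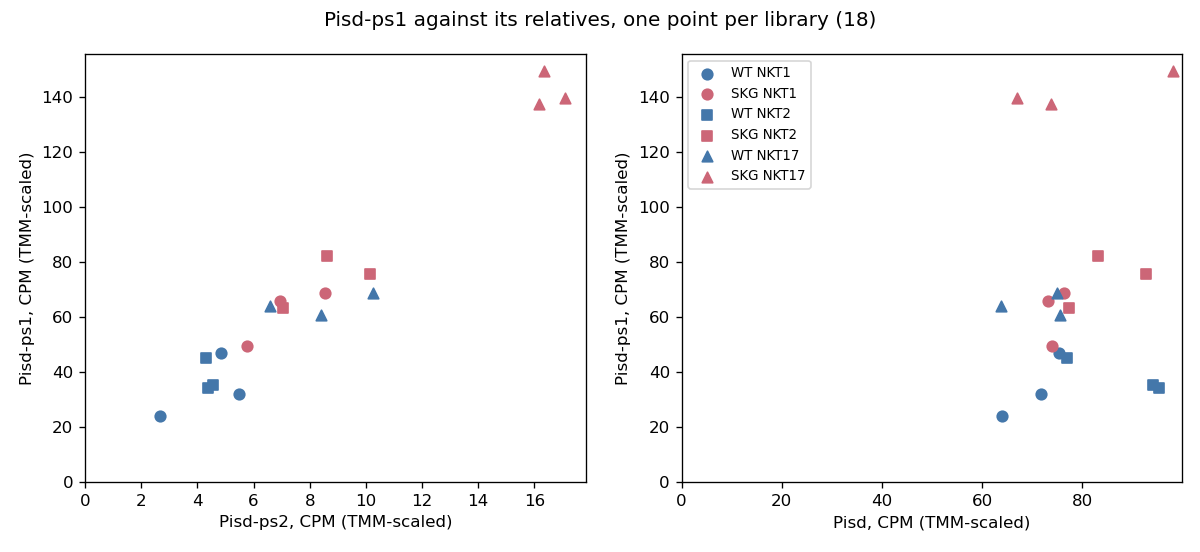
CPM of Pisd-ps1 (vertical axes) against Pisd-ps2 (left) and Pisd (right) in the 18 libraries, WT in blue and SKG in red, with circles for NKT1, squares for NKT2 and triangles for NKT17. Points rise together on the left, up to 149.2 CPM of Pisd-ps1 in SKG NKT17, while on the right Pisd stays between 63.8 and 98.2 CPM.

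The genes most like each member over the 18 libraries were on other chromosomes. For Pisd-ps1 they were Tmem181a on chromosome 17 (r = 0.96), Pisd-ps2 and Ccdc107 on chromosome 4 (r = 0.92). Of the 50-base exonic windows of Tmem181a, 25.3% occurred once in the genome, and its counts are uncertain for that reason. For Sfi1 they were Thy1 on chromosome 9 (r = 0.91), Fbxl21 on chromosome 13 (r = 0.90) and the member 4833442J19Rik (r = 0.88). For 2810474O19Rik they were Gpr34 on chromosome X (r = 0.93), Rbms1 on chromosome 2 (r = 0.91) and Flt3l on chromosome 7 (r = 0.90). For 4833442J19Rik they were Atp1b3 on chromosome 9 (r = 0.91), Gpr34 (r = 0.91) and Thy1 (r = 0.91). Within the pairs, r was 0.74 for Pisd-ps1 and Sfi1 and 0.87 for 2810474O19Rik and 4833442J19Rik, and 0.15 and 0.19 after group means were subtracted. These r values describe libraries that share a genotype or a subset, and they come with no p.

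Genes of the processes named above were also tested between SKG and WT. For the pseudogene Pisd-ps1 the process is that of its relative Pisd, so those counts do not bear on a product of Pisd-ps1. All counts are read against the 3.27%, 7.95% and 8.37% of all tested genes called in NKT1, NKT2 and NKT17. Of 11 tested genes around phosphatidylethanolamine and 14 tested genes of centrin and centriole function, 0 were called in any subset by edgeR or DESeq2. Unadjusted p-values under 0.05 were found for 1, 1 and 2 genes of the former and 2, 0 and 2 of the latter in NKT1, NKT2 and NKT17. Of 11 genes around electron transfer flavoprotein, Acadl, the long-chain acyl-CoA dehydrogenase, rose in NKT2 from 49.3 ± 5.14 to 79.0 ± 8.98 CPM (log2 difference 0.68 ± 0.13, edgeR adjusted p = 0.0017). Without SKG NKT2 replicate 3 its rise was 0.58 on the log2 scale, just under 1.5-fold. No other gene of that list was called in NKT2 and 0 were called in NKT1 and NKT17, by edgeR and by DESeq2, with 2 unadjusted p-values under 0.05 in each of these subsets. Etfb, the gene of the beta chain, fell in NKT2 from 145.3 ± 5.86 to 106.4 ± 8.48 CPM. Its log2 difference there was -0.45 ± 0.12 (edgeR, adjusted p = 0.016), under the 1.5-fold minimum. In NKT1 and NKT17 it was -0.14 ± 0.12 and 0.08 ± 0.12.

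Of 19 tested genes of retroelement silencing, 0 were called in NKT1 by edgeR (1 by DESeq2, and 5 with an unadjusted p under 0.05), and 2 fell in NKT2 and 2 in NKT17. These counts are near the shares of 7.95% and 8.37% over all tested genes. In NKT2 these were Uhrf1, which guides DNA methylation to newly copied DNA, from 81.0 ± 21.3 to 33.4 ± 7.71 CPM (log2 difference -1.27 ± 0.27, edgeR adjusted p = 0.0040), and Dnmt1, the maintenance DNA methyltransferase, from 161.5 ± 16.5 to 106.8 ± 10.8 CPM (-0.60 ± 0.12, adjusted p = 0.0024). In NKT17 these were Uhrf1 again (-0.84 ± 0.28, adjusted p = 0.063) and Cbx5, a heterochromatin protein, from 65.7 ± 6.92 to 35.7 ± 9.30 CPM (-0.88 ± 0.19, adjusted p = 0.0038). Over the list the median log2 difference ran from -0.08 for NKT1 and -0.11 for NKT2 to -0.31 for NKT17. The fall of Dnmt1 was near 1.5-fold and went under it in 7 of 18 fits that left out 1 library, with log2 differences from -0.58 to -0.54 (each WT NKT2 library but replicate 2, SKG NKT2 replicate 1 or 2, WT NKT1 replicate 2, SKG NKT1 replicate 1 or 2). The NKT17 call of Uhrf1 ended in 4 of 18, without WT NKT17 replicate 1 or 2 or SKG NKT17 replicate 2 or 3 (adjusted p 0.11 to 0.25).

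Markers of dividing cells moved the other way from the members in NKT17. Of 7 such genes, 5 fell in NKT17, 1 in NKT2 and 1 in NKT1, where 8.37%, 7.95% and 3.27% of all tested genes were called in either direction. Mki67 fell in NKT17 from 13.0 ± 3.82 to 4.06 ± 1.54 CPM (log2 difference -1.68 ± 0.34, edgeR adjusted p = 0.0019), and Cdk1 and Top2a fell by 1.55 ± 0.32 and 1.43 ± 0.33 on the log2 scale (adjusted p = 0.0029 and 0.0091). Mcm2, a subunit of the replicative helicase, fell in the 3 subsets, by 0.62 ± 0.13 in NKT1, 0.74 ± 0.13 in NKT2 and 0.66 ± 0.13 in NKT17 (edgeR, adjusted p = 0.0098, 0.00064 and 0.0022). Mcm2 in NKT1 lost its call without WT NKT1 replicate 2 or 3 or SKG NKT1 replicate 3 (log2 difference -0.58 to -0.49), and in NKT17 without SKG NKT17 replicate 3 (-0.53). The 6 markers of double-positive thymocytes summed to 14.3 to 47.5 CPM in SKG NKT17 and 5.27 to 12.5 CPM in WT NKT17 libraries, and Rag1, Rag2 and Dntt were at 0 reads in both. Among these markers Cd8b1 had 12.4 to 36.8 CPM for SKG against 1.76 to 11.8 CPM for WT NKT17 cells. Also in NKT17, Epcam, on the thymic epithelium list, was at 2.09 to 5.26 CPM in SKG against 7.65 to 16.6 CPM in WT (edgeR adjusted p = 0.069), and Nkg7, on the NKT1 list, at 13.3 to 41.1 against 1.39 to 3.71 CPM (adjusted p = 0.014). The part of dividing cells or of any of these markers in the members' levels was not tested.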

How the data were processed

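The 18 libraries are poly-A RNA of sorted thymic iNKT cells, made by a Smart-seq2-type method with Tn5 tagmentation and read as 50-base single-end reads. Per the study's methods the authors discarded reads from spike-ins, adapters, rRNA and tRNA, aligned to mouse mm9 with TopHat, removed low-complexity reads and counted with htseq-count in union mode. The submitters' processing notes list Bowtie 1.0.0, TopHat 1.4.1 and HTSeq 0.7.1 beside builds mm10 and hg19. The strand setting and annotation are not given in the sources used here, so reads of genes that overlap on opposite strands may not be told apart. The reference is of another strain than these BALB/c mice, and reads that match several places may have been lost or placed wrongly. The values deposited by the authors are counts per gene symbol, with no normalization.

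Libraries were joined to columns by title, and 2 columns of no listed sample were not used. Libraries of a group differed by more than sampling noise (chi-square per degree of freedom 5.42 to 24.4). Nothing in the labels says that they came from separate animals, although the design text speaks of independent experiments, so p-values measure the spread between these libraries. Of 15582 genes with a count, 11118 passed edgeR's filterByExpr by group. edgeR 4.0.16 in R fitted a robust quasi-likelihood model to the 6 groups with TMM factors of 0.928 to 1.07, 12 residual degrees of freedom and two-sided tests, and its pipeline was tested on simulated data. A gene counted as called where its p, adjusted by Benjamini-Hochberg over all tested genes, was under 0.1 and its fold change at least 1.5. A standard error is the log2 fold change over the square root of F. CPM on the log2 scale used a prior count of 2. The reads have no molecular identifiers, so a limit drawn from counts covers counting error only.

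The members and gene lists were chosen with earlier results of these data known. Named are the 4 members, neighbours called in a comparison of SKG with WT or otherwise the nearest 3 of each pair, the relatives of Pisd, up to 4 called genes a list by smallest adjusted p, and for each member the 3 most correlated genes. Amn1 and Drg1 were added for their position, and Etfb was added after its values were seen. Neighbours and exons come from GENCODE M1 on NCBIM37, where 10846 of the tested genes had 1 position. One gene of the silencing list was matched through its RefSeq synonym D14Abb1e. Window copies were searched on both strands and only within single exons. Alternatives were DESeq2 1.42.0, RLE and upper-quartile factors, no filter and a mean of at least 50 counts, and fits of the compared groups alone. Others were a block of the token in the sample titles and, between subsets, a block of token and genotype together. The rest were other thresholds, windows of 0.5 and 2 Mb, single genotypes, and each library left out. Libraries with the same token and genotype had correlations of -0.06 to 0.35 between their deviations from group means, and 12 of 18 pairs exceeded 0.1. Libraries of a token and genotype may thus share a source, which the labels do not state. WT and SKG libraries of the same token and subset had correlations of -0.15 to 0.09, and 0 of 6 pairs exceeded 0.1. The main fit had no block, so its p-values do not allow for such sharing.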

Additional observations from a re-analysis of the deposited data

Results flagged for a closer look

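For 4 of the 28 tested neighbours the SKG difference itself differed between subsets (edgeR quasi-likelihood test of that difference, adjusted p under 0.1 over all tested genes). Each neighbour was tested for 3 pairs of subsets. The share of all tested genes that passed was not computed, so nothing is read from this count. For Eif4enif1 the log2 difference of SKG from WT was lower in NKT1 than in NKT17 by a value of -1.24 ± 0.31 (adjusted p = 0.032), and it was lower in 3 of 3 SKG NKT1 libraries. For Smtn it was 3.14 ± 0.80 higher in NKT1, where the gene was hardly read, than in NKT2 (adjusted p = 0.033). For Tcn2 it was 0.88 ± 0.24 higher in NKT1 than in NKT2 (adjusted p = 0.044). For Fam60a, a chromosome 6 neighbour 193382 bases from the pair that was singled out after its values were seen, it was 0.80 ± 0.20 higher in NKT1 than in NKT2 (adjusted p = 0.026), at 177.0 ± 6.94 CPM in SKG and 135.7 ± 22.1 in WT NKT1 and 114.9 ± 8.21 in SKG and 153.5 ± 9.02 in WT NKT2.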

How the results depend on the processing

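The 12 SKG differences of the members stayed above 0 in every alternative and in each of 18 fits without 1 library. With the title token as a replicate block, 2 moved by more than the spread between replicates, 2810474O19Rik in NKT1 to 0.47, which is under 1.5-fold and ended its call, and Pisd-ps1 in NKT17 to 1.24. That block gave 390, 1044 and 913 genes called SKG against WT in NKT1, NKT2 and NKT17, where 364, 884 and 931 were called without it, and it gave 1 called neighbour in NKT1 and 2 and 3 called list genes in NKT1 and NKT2. Called neighbours, 3 in each subset, were 0 in NKT1 when only the groups compared were fitted, 1 in NKT1 at an adjusted p under 0.05, and 6 in NKT2 with no fold-change minimum. They were 1 in NKT2 within 0.5 Mb, and 5 in NKT2 and 5 in NKT17 within 2 Mb. Called genes of the lists, 1, 5 and 8 in NKT1, NKT2 and NKT17, were 2 in NKT1 with DESeq2, 5 in NKT17 at an adjusted p under 0.05, and 3, 10 and 14 with no fold-change minimum. Members called between NKT17 and NKT2 numbered 3 with no fold-change minimum and 2 within WT, and those called between NKT1 and NKT2 numbered 0 within SKG. The cause of these shifts was not tested.

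Without 1 library, called neighbours ran from 1 to 3 in each subset: 1 without any SKG NKT1 library in NKT1, without WT NKT2 replicate 2 in NKT2 and without SKG NKT17 replicate 1 in NKT17. Called list genes ran from 0 to 2 in NKT1 (2 without WT NKT1 replicate 1, 0 without WT NKT1 replicate 3 or SKG NKT1 replicate 3), 3 to 5 in NKT2 (3 without SKG NKT2 replicate 2 or WT NKT2 replicate 3) and 4 to 8 in NKT17 (5 without WT NKT17 replicate 1, 4 without SKG NKT17 replicate 3). Members called between NKT17 and NKT2 ran from 1 to 2, with 4833442J19Rik added without WT NKT17 replicate 1 or WT NKT2 replicate 3. Members called between NKT1 and the other subsets stayed at 2. No called value changed sign. Of values not called, Sfi1 turned to 0.31 for NKT1 minus NKT17 within WT and to -0.22 for NKT1 minus NKT2 within SKG, 2810474O19Rik turned to 0.12 for NKT17 minus NKT2 within WT and ran from -0.17 to 0.0081 without 1 library. Amn1 turned to -0.065 in NKT2 under the block and, without 1 library, ran from -0.18 to 0.10 in NKT1, -0.13 to 0.20 in NKT2 and -0.32 to 0.13 in NKT17, and Pisd ran from -0.022 to 0.27 in NKT17. Genes at a few reads per library, such as Slc35e4 and Gal3st1, are limited by depth.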
